A study of Homo sapiens with 14 samples.

Results

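Mitochondrial ribosomal protein genes encode the protein subunits of the ribosome inside mitochondria, and 77 of the 55075 gene rows in the deposited tables carry such a name. The rows were chosen by symbol alone: MRPL or MRPS followed by a number and, in some, the letter A, B or C. They hold 76 symbols, since MRPL46 stands in 2 rows with different gene identifiers, and 48 of the rows are named MRPL and 29 MRPS. In 1 of the MRPL46 rows, 75.3% of the exon bases in GENCODE 29 are shared with DET1 on the same strand, so its counts are uncertain. Another 48 rows with related symbols, all pseudogenes but for 1 antisense gene, were outside the rule. All 77 rows had at least 186 counts in every column, so each passed the minimum of 50 counts used below.

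RNA was sequenced from CUTLL1 and CEM, 2 established lines of human T cell acute lymphoblastic leukemia grown in suspension. Cells had been infected with retroviruses carrying 1 of 3 short hairpins. One targets JMJD3, the gene KDM6B, another targets UTX, the gene KDM6A, and the third targets Renilla luciferase, which human cells lack, as the control. CUTLL1 had 3 samples of shJMJD3, 2 of shUTX and 3 of shRenilla, and CEM had 2 of each, but the authors deposited 1 count column per hairpin and line. All groups, the controls included, carried a retrovirus and a hairpin, and both lines are leukemia cells in culture with no unmodified cells beside them. The question the design states is how knockdown of either enzyme, or of one against the other, changes expression in each line.

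Mitochondria keep a small genome of their own, and their ribosomes translate its messages into subunits of the respiratory chain and of ATP synthase. The ribosomal RNAs come from the mitochondrial genome, whereas every ribosomal protein is encoded in the nucleus, made in the cytosol and imported. Part of the proteins have a counterpart in bacterial ribosomes and part are found in mitochondria only, and they assemble into a large particle, where peptide bonds form, and a small particle, where the message is decoded. JMJD3 and UTX are demethylases that erase the repressive Polycomb mark on histone H3 (trimethylated lysine 27).

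The smallest column total was that of CEM shJMJD3, at 70280185 counts. The CUTLL1 control exists as a larger column of 258014046 counts, deposited beside shJMJD3, and a smaller one of 144394369, deposited beside shUTX. The larger was at or above the smaller in every gene, and the difference is called the remainder here. CUTLL1 columns also differed in makeup, with small non-coding RNA at 11.7% of counts in shJMJD3, 9.35% in the larger control, 2.59% in shUTX and 1.98% in the smaller control, against at most 0.116% in CEM. A group of 77 other genes had 1000 or more counts in shJMJD3 of CUTLL1 but 0 in its shUTX column. Of these, 72 had 3 counts or fewer in the smaller control too, and no mitochondrial ribosomal protein gene was among them. RPS17L, a near-identical copy of a cytosolic ribosomal protein gene, was one, at 58747 counts in shJMJD3 and 66137 in the remainder, but 0 in shUTX and in the smaller control. Both targets stood lower under their own hairpin. KDM6B stood at 13.4 in CUTLL1 shJMJD3 against 20.9 in its control column, and at 53.1 against 180 in CEM. KDM6A stood at 19.1 in CUTLL1 shUTX against 40.1 in its control, and at 45.8 against 119 in CEM. Across lines the edgeR adjusted p was 0.80 for KDM6B (log2 ratio -1.16, SE 0.30) and 1 for KDM6A (-1.25, SE 0.17). All 9 T cell markers examined had counts in every column, with a summed level between 3598 and 4897, while of 5 B cell markers 4 had counts in CEM and 3 in CUTLL1, with summed levels of 48.4 to 72.8 and 1.66 to 5.10 in the deposited columns, and MS4A1 was at 0 throughout.

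Levels here are CPM, counts scaled to a common library size, after TMM, which sets columns against each other by a trimmed mean of their gene ratios. Ratios are log2 values on that scale with a prior count of 2, and their 95% intervals are exact binomial and cover counting error only. Since each hairpin and line has 1 column, no ratio within a line has a replicate check or a test. A gene was counted as apart when its ratio reached 1.5-fold, among genes with 50 counts or more in either column. Had column totals been used for scaling, every log2 ratio in CUTLL1 would shift by -0.14 for shJMJD3 over shRenilla, -0.09 for shUTX over shRenilla and -0.31 for shJMJD3 over shUTX. The shifts in CEM were -0.22, -0.03 and -0.19.

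The genes whose shJMJD3 ratios lay at the ends of the range in CEM, or in CUTLL1, are shown first by the sequence upstream of their start sites, since the results below turn on them. MRPL17 and MRPS15 had the 2 highest ratios in CEM, MRPS18B the next to lowest there, and MRPS34 the lowest in CUTLL1. They were picked after their values were seen. MRPL1 and MRPL41 were considered too, but annotated exons cover their upstream windows and they are not printed. Sequences are from RefSeq on build GRCh38.p14, 5′ to 3′ on the gene's strand, with motif matches in capitals. The stretches lie at chr11:6683402-6683551 on the minus strand for MRPL17, chr1:36464438-36464587 on the minus strand for MRPS15, chr6:30617590-30617708 on the plus strand for MRPS18B and chr16:1773156-1773206 on the minus strand for MRPS34.
MRPL17: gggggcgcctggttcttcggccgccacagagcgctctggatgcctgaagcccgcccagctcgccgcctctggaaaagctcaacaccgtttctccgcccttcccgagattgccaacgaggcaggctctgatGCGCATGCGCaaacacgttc
MRPS15: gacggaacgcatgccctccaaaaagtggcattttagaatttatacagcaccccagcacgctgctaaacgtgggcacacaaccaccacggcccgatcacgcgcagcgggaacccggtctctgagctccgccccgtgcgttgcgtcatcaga
MRPS18B: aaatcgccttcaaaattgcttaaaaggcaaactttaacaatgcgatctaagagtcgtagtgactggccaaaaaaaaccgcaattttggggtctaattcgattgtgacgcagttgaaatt
MRPS34: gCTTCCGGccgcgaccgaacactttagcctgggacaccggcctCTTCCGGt
The match in MRPL17 is to the NRF1 motif and both matches in the stretch of MRPS34 are to the ETS motif, read on the other strand. MRPS34 has 1 more ETS match closer to its start, outside the stretch. MRPS15 had no match in its window, and MRPS18B had a YY1 match downstream of its start, outside the stretch shown.

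Windows from 250 bases before to 50 bases after the start were on hand for 67 of the 76 symbols and were searched on both strands for 4 motifs chosen after expression values were known. The ETS motif CCGGAAG, bound by factors such as GABPA, was in 41.8% of the 67 windows, against 10.7% of all 27305 windows and 14.2% of the windows of protein-coding genes. The YY1 motif AAGATGGCG was in 19.4%, against 1.85% and 2.74%. For the NRF1 motif the shares were 10.4%, 6.28% and 8.58%, and for the E-box CACGTG they were 8.96%, 7.43% and 8.88%. The ETS and YY1 motifs can overlap by the letters AAG, and a match is a string of letters rather than a measured binding site. Among genes at least 1.5-fold higher with shJMJD3 in CEM, 5 of 15 windows held the ETS motif, and among the other genes 23 of 52 did. Both the ETS and the YY1 shares therefore lay above those of all windows in the family at large, while the genes that stood highest in CEM held the ETS motif in 33.3% against 44.2% of the rest.

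Together these genes took 0.325% of all counts in CUTLL1 shJMJD3, 0.391% in shUTX, 0.375% in the larger control and 0.438% in the smaller control. In CEM the shares were 0.349% with shJMJD3, 0.331% with shUTX and 0.339% with shRenilla. Of the counts on protein-coding genes they took between 0.485% and 0.536% in CUTLL1 and between 0.355% and 0.371% in CEM, so the lines did not overlap in this measure. Per kilobase of exon, for the 75 rows with a length in GENCODE 29, the median level was between 16.5 and 18.04 in the deposited CUTLL1 columns and between 12.4 and 13.7 in CEM. Levels per kilobase spread widely within a column. The lengths merge all annotated exons of a gene, such as 1097 bases for MRPS34 and 16393 for MRPL42, so the spread and the ranks depend on them too. MRPS34, a small-particle protein found in mitochondria only, was the highest in all deposited columns but CEM shJMJD3, at 103 in the larger CUTLL1 control and 58.9 in CEM shRenilla. MRPL51 followed it in each of these. In CEM shJMJD3 the highest was MRPL18, at 71.5, and MRPL17 came after MRPL51 at 51.8, whereas MRPL41 was lowest at 2.13.

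**Figure D1:**
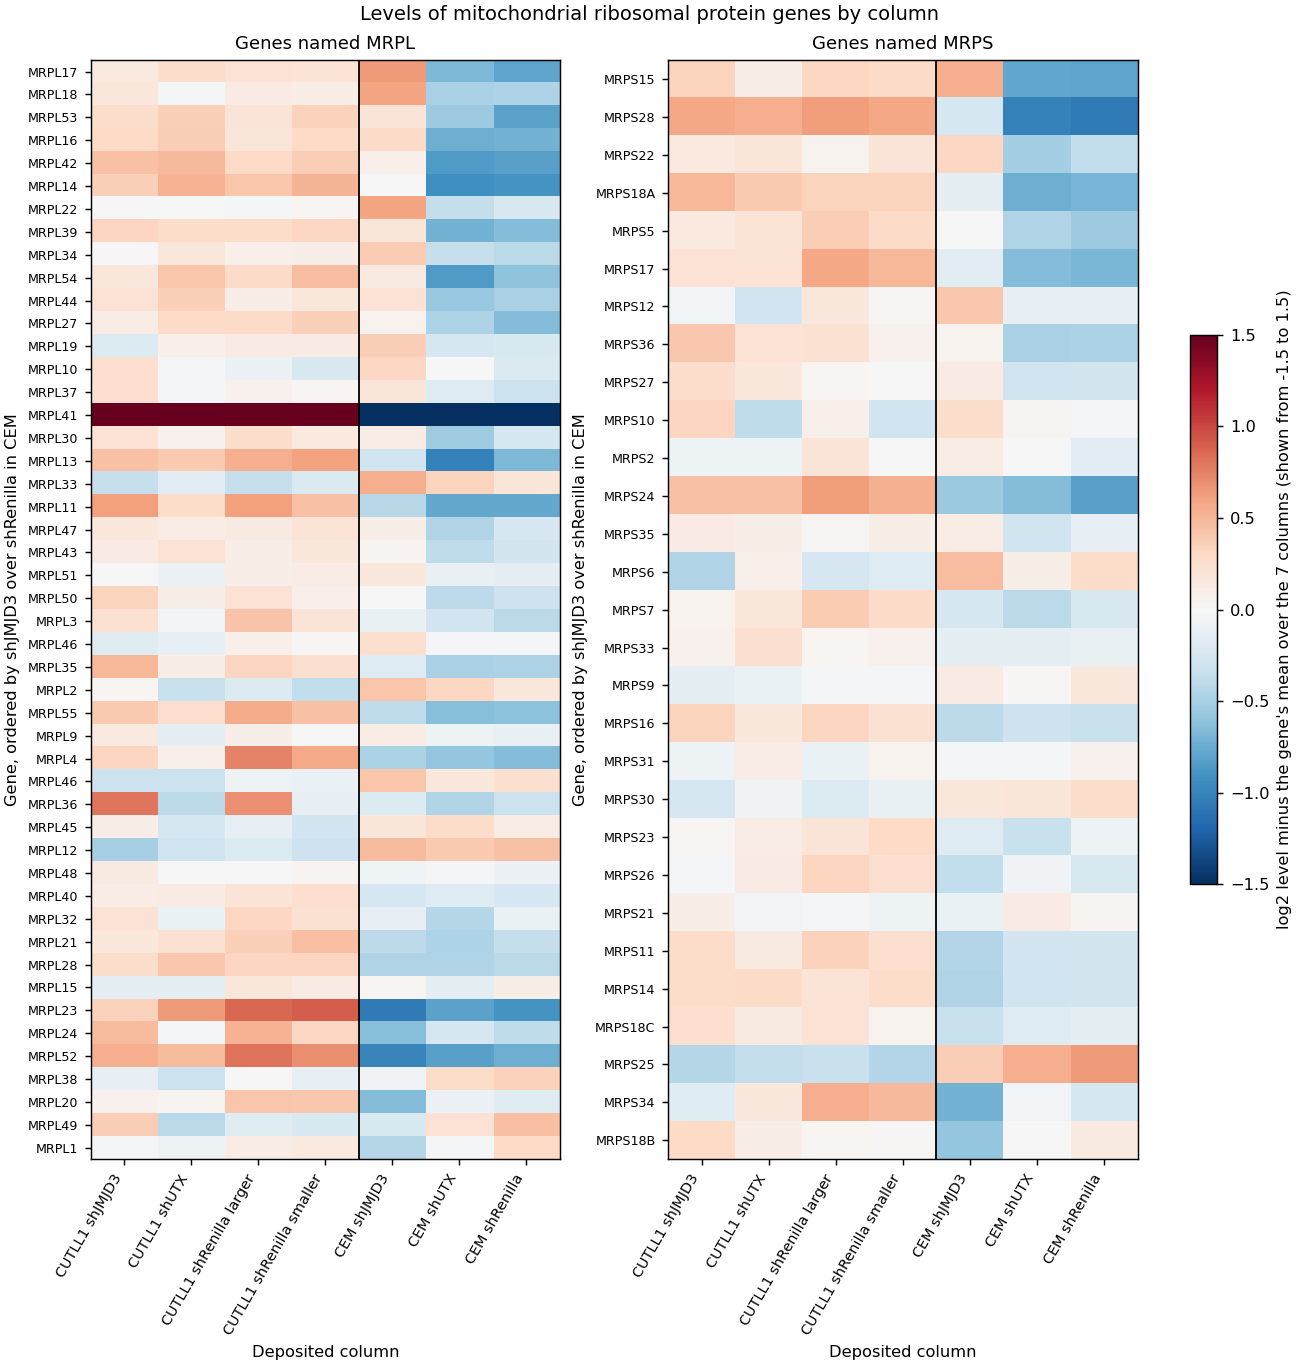
Each row is 1 gene and each cell its log2 level minus the gene's mean over the 7 deposited columns, with genes named MRPL on the left, genes named MRPS on the right, and a black line between CUTLL1 and CEM. MRPL41 is far above its mean in all CUTLL1 columns, and in CEM the shJMJD3 column stands apart from the other columns for genes near the top and the bottom.

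With the JMJD3 hairpin in CEM, part of the family stood above both other columns and a few members stood below. Against shRenilla, 16 of the 77 genes were at least 1.5-fold higher, where 19.5% of all 16998 genes counted were, and 3 were at least 1.5-fold lower, where 27.2% were. The share higher was thus near the background and the share lower, 3.9%, was under it. The median ratio of the 77 genes was 0.26, against -0.11 for all genes and -0.06 for protein-coding genes. With column totals the counts were 9 higher and 6 lower, against 13.9% and 36.5% of all genes, and the medians were 0.04 and -0.32. In the authors' deposited table, which scales to column totals, 30 of the genes were called higher and 30 lower at p under 0.001, against 17.3% and 37.1% of all genes. Those calls compare the reads of the libraries and not the conditions.

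The 2 highest ratios belonged to MRPL17 and MRPS15. MRPL17, a large-particle protein with a bacterial counterpart, stood at 118 in CEM shJMJD3, 44.0 in shRenilla and 47.8 in shUTX, a log2 ratio to shRenilla of 1.42 (95% interval 1.37 to 1.47). MRPS15, which binds the ribosomal RNA of the small particle, stood at 109, 43.1 and 43.6 in the same order, a ratio of 1.34 (1.29 to 1.39). In both genes the shJMJD3 column was more than 2-fold above the other columns, which were close to each other. In CUTLL1 neither gene separated the hairpins. MRPL17 was at 84.4 with shJMJD3, 91.0 with shUTX and 88.1 and 87.4 in the larger and smaller controls, and MRPS15 was at 94.3, 80.3, 93.1 and 91.4.

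MRPL18, the counterpart of a bacterial protein that contacts ribosomal RNA, stood at 98.3 in CEM shJMJD3 against 47.5 in shRenilla and 46.7 in shUTX, a ratio of 1.05. MRPL53, a large-particle protein found in mitochondria only, stood at 52.0 against 26.0 and 30.9, a ratio of 1.00. For MRPL53, 45.2% of its exon bases in GENCODE 29 are shared with CCDC142 on the same strand, so its counts are uncertain. The other 12 genes past 1.5-fold had ratios from 0.60 in MRPL19 to 0.99 in MRPL16, and among them were MRPL14, MRPL22, MRPL39, MRPL42 and MRPS28. In all 16 the shJMJD3 column was the highest of the 3 CEM columns.

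At the other end, MRPL1, the protein of the mobile stalk next to the exit site, stood at 18.3 in CEM shJMJD3, 30.3 in shRenilla and 24.0 in shUTX, a ratio to shRenilla of -0.73 (95% interval -0.82 to -0.63). MRPS18B stood at 37.1, 61.0 and 54.9, a ratio of -0.72 (-0.78 to -0.65). MRPL49, a large-particle protein without bacterial counterpart, stood at 36.5, 58.2 and 49.7, a ratio of -0.67 (-0.74 to -0.61). In these 3 genes shJMJD3 was lowest, shUTX intermediate and shRenilla highest. MRPL20, whose bacterial counterpart binds ribosomal RNA early in assembly, was next at 42.1 against 58.3 and 62.2, a ratio of -0.47, short of 1.5-fold.

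**Figure D2:**
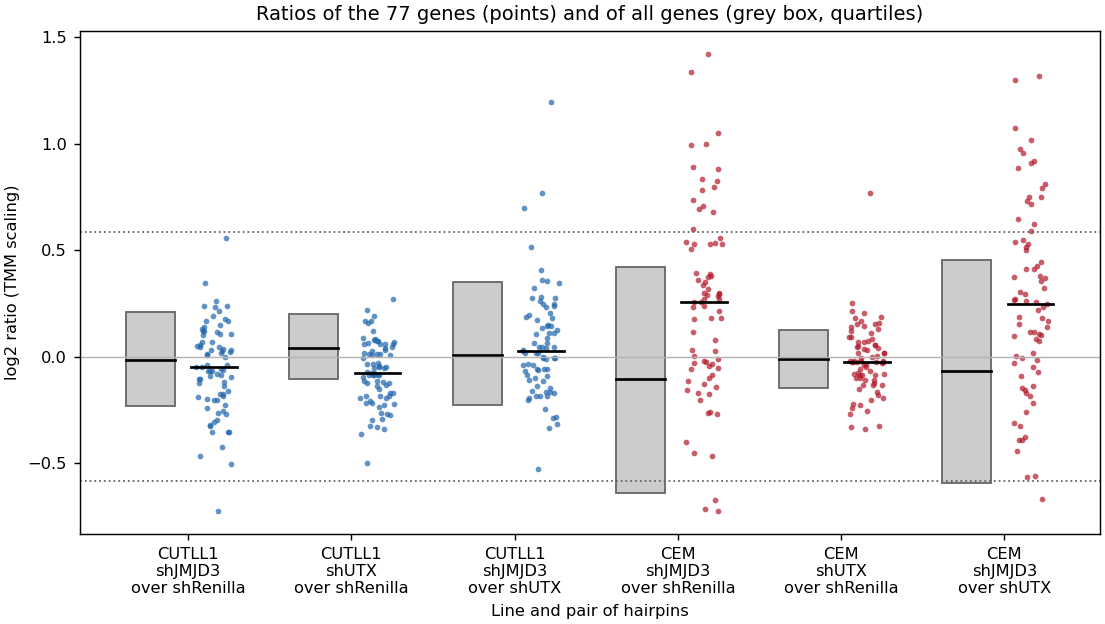
Log2 ratios of the 77 genes (points, with their median as a black bar) beside the quartiles and median of all genes with 50 counts or more in either column (grey box), for each pair of hairpins in each line, with dotted lines at 1.5-fold. Both CEM comparisons with shJMJD3 have the widest spread of points and medians of 0.26 and 0.25, while the CEM shUTX points gather around -0.02.

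Members past 1.5-fold were also counted by particle. Of all genes, 19.5% were higher and 27.2% lower with shJMJD3 over shRenilla in CEM. Of the 50 large-particle genes, among them MRPS18A and MRPS30, 13 were higher and 2 lower with shJMJD3 in CEM, with a median of 0.29. Of the 26 small-particle genes, 3 were higher and 1 lower, with a median of -0.02. With column totals these medians were 0.07 and -0.24. Proteins with a bacterial counterpart had a median of 0.26 over 46 rows and those without one 0.20 over 30. MRPS36, which sits in neither group because it is a subunit of the 2-oxoglutarate dehydrogenase complex, had a ratio of 0.53. No test sets one group of genes against another here.

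MRPS18 is a small set of paralogs whose products take different places: MRPS18A in the large particle, MRPS18B and MRPS18C in the small. With shJMJD3 in CEM their ratios to shRenilla were 0.56, -0.72 and -0.21, so the 3 paralogs spread to both sides. In CUTLL1 they were 0.17, 0.26 and 0.03. With shUTX they lay between -0.15 and 0.09 in both lines, for example 0.06, 0.09 and 0.08 in CUTLL1. For shJMJD3 over shUTX they were 0.59, -0.56 and -0.14 in CEM and 0.11, 0.19 and 0.11 in CUTLL1. MRPS18A and MRPS18C share 47.0% and 40.2% of their exon bases with a gene on the opposite strand, and the sources used here do not say whether the authors counted by strand.

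Set against shUTX in place of shRenilla, the CEM shJMJD3 column gave a like picture from the same shJMJD3 counts. At least 1.5-fold higher were 18 genes, where 20.6% of all genes were, and 1 was lower, where 25.3% were. The median was 0.25, against -0.07 for all genes, and with column totals there were 11 higher and 5 lower with a median of 0.06, where 15.2% and 33.3% of all genes stood apart. MRPS15 was first at 1.32 and MRPL17 second at 1.30, followed by MRPL18 at 1.07 and MRPL16 at 1.02. MRPS34 was the gene past 1.5-fold on the lower side, at 47.1 with shJMJD3, 74.9 with shUTX and 64.6 with shRenilla, a ratio to shUTX of -0.67. MRPS18B, MRPL20 and MRPL49 followed at -0.56, -0.56 and -0.44. The comparisons with shRenilla and with shUTX share the shJMJD3 column, so neither supports the other. The authors' deposited table called 32 higher and 24 lower here, against 18% and 35% of all genes.

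In CUTLL1 the JMJD3 hairpin left the family close to its control. None of the 77 genes was at least 1.5-fold higher than in the larger control column, where 8.37% of all genes were, and 1 was lower, where 7.52% were. The median was -0.05, against -0.01 for all genes. Column totals gave 0 higher and 3 lower, against 6.07% and 11.8% of all genes, and a median of -0.19. The authors' deposited table called 6 higher and 57 lower, against 11.1% and 29.1% of all genes. The gene on the lower side was MRPS34, at 68.3 with shJMJD3, 113 in the larger and 108 in the smaller control and 86.3 with shUTX. Its ratio was -0.72 (95% interval -0.76 to -0.69) against the larger control, -0.66 against the smaller and -0.68 against the remainder. MRPS34 was therefore lowest with shJMJD3 whichever part of the control was used, and in CEM too its shJMJD3 column was the lowest of 3, with a ratio to shRenilla of -0.46.

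MRPL23, a protein at the mouth of the exit tunnel, was at 67.6 with shJMJD3 and 96.0 in the larger control, a ratio of -0.51. MRPL41 and MRPL4, both large-particle proteins, had ratios of -0.47 and -0.43. The highest ratio was that of MRPL49, at 55.2 with shJMJD3 against 37.6 and 36.4 in the controls and 32.4 with shUTX, a ratio of 0.56 to the larger control and 0.60 to the smaller. MRPL49 was thus highest with shJMJD3 in CUTLL1 and lowest with it in CEM. MRPL10, part of the stalk that recruits translation factors, followed at 0.35, then MRPS18B at 0.26 and MRPS27 at 0.24. Against the smaller control 3 genes were at least 1.5-fold higher, where 19.8% of all genes were, and 1, MRPS34, was lower, where 4.29% were. The 3 higher were MRPL36 at 0.92, MRPS10 at 0.61 and MRPL49.

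MRPL36 and MRPS10 were the genes that differed most between the larger and the smaller CUTLL1 control columns. Between the remainder and the smaller control other members differed widely in the opposite direction, such as MRPL54 at 24.6 and 42.1 and MRPL53 at 35.5 and 57.6. MRPL36, a large-particle protein with a bacterial counterpart, was at 16.99 with shJMJD3, 15.7 in the larger control, 8.95 in the smaller, 26.3 in the remainder and 7.42 with shUTX. MRPS10, a small-particle protein with a bacterial counterpart, was at 30.4, 25.8, 19.9, 33.9 and 18.7 in that order. Both were high in shJMJD3 and the remainder and low in shUTX and the smaller control, the same columns that differ in small non-coding RNA and in RPS17L, and the part of these differences in the ratios was not tested. Neither gene has a pseudogene row in the tables. Of the 47 pseudogene rows of the family, 22 had no count in any column and the highest, MRPS31P4, reached 1585.

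For shJMJD3 over shUTX in CUTLL1, the genes past 1.5-fold on the higher side numbered 3, where 19.1% of all genes were, and none was lower, where 6.58% were. They were MRPL36 at 1.19, MRPL49 at 0.77 and MRPS10 at 0.70, with MRPL24 next at 0.51. The median was 0.03, against 0.01 for all genes, but it was -0.29 with column totals and -0.03 with DESeq2's size factors, so its direction depends on the scaling. Column totals gave 1 higher and 5 lower, against 15.3% and 21.3% of all genes, and the authors' deposited table called 5 higher and 60 lower, against 13.5% and 37.9%. The lowest was MRPS6, a small-particle protein with a bacterial counterpart, at 39.0 with shJMJD3, 56.2 with shUTX and 44.6 and 46.6 in the controls, a ratio of -0.53. MRPS34, MRPL41 and MRPL23 followed at -0.34, -0.31 and -0.29. The 27 rows whose symbol has a pseudogene row had a median of 0.12 and the other 50 a median of -0.01.

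**Figure D3:**
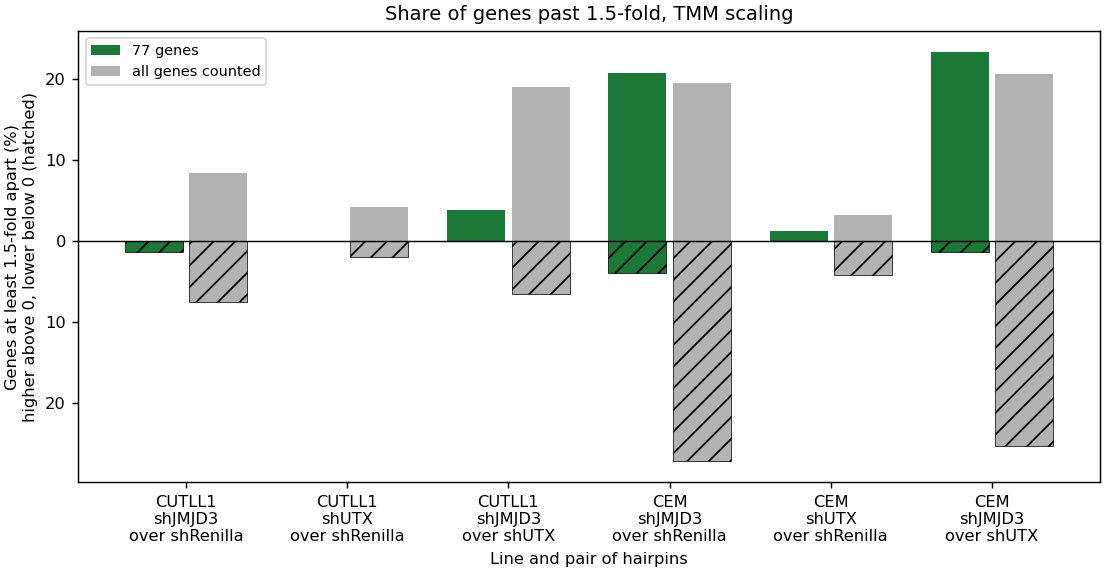
Percent of the 77 genes (green) and of all genes with 50 counts or more in either column (grey) that were at least 1.5-fold higher (above 0) or lower (below 0, hatched) in each comparison. The green bars below 0 are shorter than the grey ones in every comparison, and above 0 they reach or pass the grey ones in the CEM comparisons with shJMJD3 only.

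Few members stood apart with the UTX hairpin in either line. In CUTLL1 none of the 77 genes was 1.5-fold higher or lower than in the smaller control, where 4.24% and 1.9% of all genes were, and the median was -0.08 against 0.04. Column totals gave 0 higher and 1 lower, against 2.93% and 2.74%, and a median of -0.16. The authors' deposited table called 4 higher and 51 lower, against 9.49% and 17.9%. MRPL4, a protein that lines the exit tunnel, was lowest at 68.3 with shUTX against 96.6, a ratio of -0.50, followed by MRPL20 at -0.36, MRPL24 at -0.34 and MRPL32 at -0.33. MRPS6, MRPL10, MRPL44 and MRPS33 were highest, at 0.27, 0.22, 0.19 and 0.17, though MRPL10 was at -0.03 against the remainder. Against the larger control 2 genes passed 1.5-fold on the lower side, where 18.3% of all genes did, and none on the higher side, where 6.26% did. The 2 were MRPL36 at -1.08 and MRPL4 at -0.67. Against the remainder 8 were higher and 5 lower, where 23.6% and 23.4% of all genes were.

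In CEM 1 gene, MRPL41, was at least 1.5-fold higher with shUTX, where 3.23% of all genes were, and none was lower, where 4.17% were. MRPL41, a large-particle protein without bacterial counterpart, was at 3.504 with shUTX, 2.69 with shJMJD3 and 2.05 with shRenilla, from 279, 186 and 244 counts, and its ratio to shRenilla was 0.77. Column totals also gave 1 higher and 0 lower, against 3% and 4.63% of all genes, and the authors' deposited table called 13 higher and 21 lower, against 10.6% and 15.2%. The median was -0.02, against -0.01 for all genes. MRPL53, MRPS34 and MRPL10 followed MRPL41 at 0.25, 0.22 and 0.21. MRPL13 was lowest at 14.9 against 18.9, a ratio of -0.34, followed by MRPL1 at -0.33, MRPL32 at -0.32 and MRPL30 at -0.27. MRPL32, a protein that a mitochondrial protease must trim before it enters the ribosome, was thus among the lowest 4 with shUTX in both lines, at -0.33 and -0.32, short of 1.5-fold in each.

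**Figure D4:**
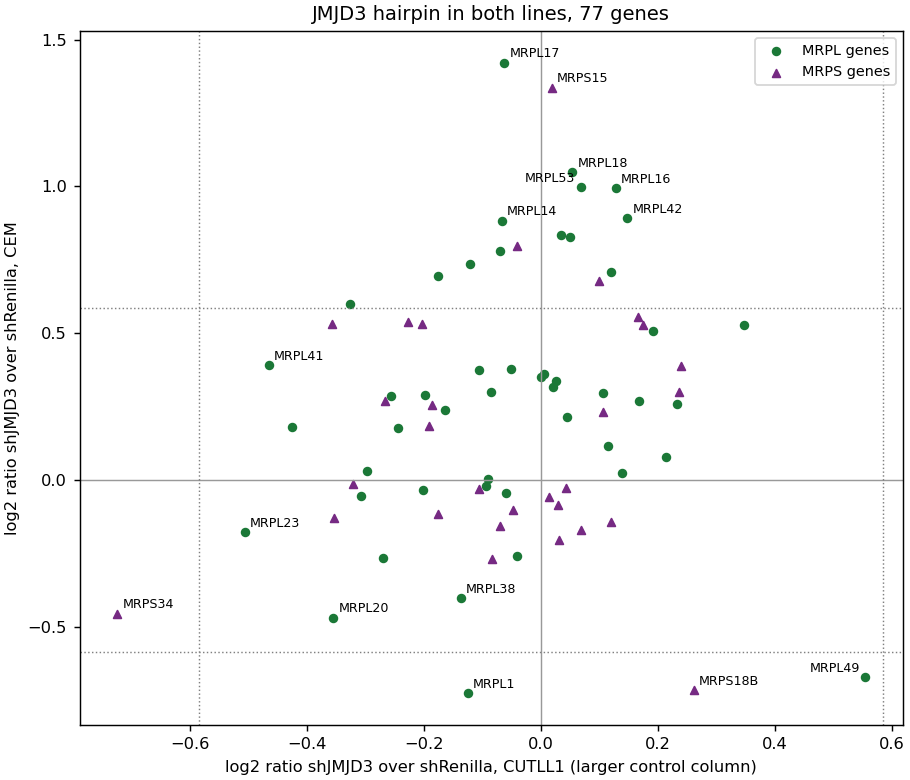
Log2 ratio of shJMJD3 to shRenilla in CUTLL1 (x axis, larger control column) against CEM (y axis), with 1 point per gene, circles for genes named MRPL and triangles for genes named MRPS, and dotted lines at 1.5-fold. No point lies past the dotted lines on the same side in CUTLL1 and CEM, and MRPL49 and MRPS18B lie to the right in CUTLL1 and at the bottom in CEM.

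For no pair of hairpins did any gene of the family pass 1.5-fold on the same side in CUTLL1 and in CEM. With shJMJD3 over shRenilla 26 genes were above 0 in both lines, 18 below 0 in both and 33 on opposite sides. Pearson's r across the 77 genes was 0.15 and Spearman's rho 0.21, and r across all 15882 genes counted in both lines was 0.22. For shUTX over shRenilla r was 0.03 and for shJMJD3 over shUTX -0.09. These are descriptions across genes, which share libraries and depth and are not replicates. The test across lines, edgeR's quasi-likelihood F test with the line as a block and 2 residual degrees of freedom, called none of the genes and none of the 24003 genes tested for shJMJD3 against shRenilla. Its unadjusted p was under 0.05 for 936 genes, 3.9% of those tested, and for 2 of the family, MRPS34 (-0.54) and MRPL10 (0.49), whose Benjamini-Hochberg adjusted p was 0.80 in edgeR. DESeq2 called 110 genes, none of them in the family. For shUTX against shRenilla edgeR called none of 23112 genes. There 39 (0.169%) had an unadjusted p below 0.05, none of these in the family, and DESeq2 called 4, again none in the family. For shJMJD3 against shUTX edgeR called none of 24003. Unadjusted, 1945 (8.1%) lay below 0.05, of which 1, MRPS34, was in the family, and DESeq2 called 287, none in the family. With 1 column per hairpin and line, these p-values rest on how far the hairpin differences disagree between the 2 lines. That spread is drawn from all 3 hairpins and partly shared across genes, and not from replicate libraries.

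A further 6 subunits do not carry an MRP symbol. DAP3, a GTP-binding protein of the small particle, was at 139.5 with shJMJD3, 129.6 with shUTX and 123.6 with shRenilla in CEM and at 146.4, 125.4, 117.5 and 114.4 in CUTLL1, the last 2 values being the larger and smaller controls. CHCHD1, also of the small particle, was at 29.4, 17.6 and 18.7 in CEM, a ratio of shJMJD3 to shRenilla of 0.65, and at 21.99, 25.6, 23.8 and 25.8 in CUTLL1. CHCHD1 was the 1 of the 6 past 1.5-fold in CEM. ICT1, a peptidyl-tRNA hydrolase built into the large particle, had a ratio of 0.50 there, AURKAIP1 0.29, DAP3 0.17, GADD45GIP1 -0.03 and PTCD3 -0.07. In CUTLL1 the shJMJD3 ratios of the 6 ran from -0.36 in GADD45GIP1 to 0.32 in DAP3, and with shUTX from -0.29 in AURKAIP1 to 0.13 in DAP3. With shUTX in CEM they ran from -0.09 in AURKAIP1 to 0.17 in GADD45GIP1. For shJMJD3 over shUTX they ran from -0.20 in GADD45GIP1 to 0.74 in CHCHD1 in CEM and from -0.22 in CHCHD1 to 0.22 in DAP3 in CUTLL1.

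MRPL12 and MRPS12 were followed in every comparison. MRPL12, which besides its place in the ribosome binds the mitochondrial RNA polymerase, was at 41.6 with shJMJD3, 39.3 with shUTX and 40.7 with shRenilla in CEM and at 21.2, 24.5, 26.1 and 24.2 in CUTLL1. Its columns barely differed within CEM, and in CUTLL1 shJMJD3 was lowest, at -0.30 to the larger control. MRPS12, the counterpart of the bacterial protein that controls decoding accuracy, was at 37.4, 26.0 and 25.9 in CEM and at 27.4, 23.2, 31.6 and 28.6 in CUTLL1. Its shJMJD3 ratios to shRenilla were 0.53 and -0.20. MRPL12 shares 68.2% of its exon bases with another annotated gene on the same strand.

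Other genes of the pathway did not follow 1 direction. For the counts below, 19.5% of all genes were at least 1.5-fold higher with shJMJD3 over shRenilla in CEM and 27.2% lower. With column totals these shares were 13.9% and 36.5%. With shJMJD3 over shRenilla in CEM, factors of ribosome assembly and ribosomal RNA modification had 3 rows higher and 7 lower of 27 counted, with a median of -0.27. GTPBP10, a GTPase of large-particle assembly, was at 43.1 against 97.9, a ratio of -1.18. NSUN4, a methyltransferase of the small-particle RNA, was at -1.09. TFB1M, which dimethylates the small-particle RNA, was at 22.4 against 10.05, a ratio of 1.16. Of 16 translation factors 3 were higher and none lower, with a median of -0.12, and MTIF3, an initiation factor, was at 66.1 against 28.95, a ratio of 1.19. Of 16 mitochondrial aminoacyl-tRNA synthetases none was higher and 2 were lower (median -0.03), and of 14 genes of mitochondrial transcription and its nuclear regulators none was higher and 4 were lower (median -0.26), POLRMT, the mitochondrial RNA polymerase, among them at -0.60. With column totals the counts were 1 and 11 for assembly, 2 and 3 for translation factors, 0 and 6 for synthetases and 0 and 5 for transcription. These examples were chosen after their values were seen. In CUTLL1 the same lists had no gene higher and 0, 0, 1 and 1 lower, with medians from -0.17 to -0.06. Of all genes there, 8.37% were higher and 7.52% lower.

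The messages these ribosomes translate stood above the control with shJMJD3 in CEM. All 12 mitochondrially encoded mRNAs counted were above 0 in CEM, 9 of them past 1.5-fold and none lower, with a median of 0.83 (0.61 with column totals). In CUTLL1 the median was -0.19, with none higher and 1 lower. By the naming rule, MT-ATP6, MT-CO2, MT-CO3 and MT-ND4 are named as genes at least 1.5-fold higher in both lines for shJMJD3 over shUTX. MT-CO2, a cytochrome oxidase subunit, was at 1873, 844 and 952 with shJMJD3, shUTX and shRenilla in CEM and at 153, 41.6 and 189 in CUTLL1 with the larger control. MT-CO3 had ratios to shUTX of 0.80 in CEM and 0.88 in CUTLL1, MT-ND4 0.80 and 0.81, and MT-ATP6 0.76 and 4.42. In the smaller CUTLL1 control column MT-CO2 was at 31.6, so the CUTLL1 ratio follows the same split of columns as MRPL36.

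Cytosolic ribosomal protein genes, a set chosen after results were seen, had a median of 0.53 with shJMJD3 in CEM, with 38 of 81 higher and 1 lower, and 0.16 in CUTLL1 with none apart. Markers of other cells also differed between the CEM columns, and not in 1 direction. All 6 myeloid markers had counts in every CEM column, and their summed level was 23.3 with shJMJD3 against 5.87 with shUTX and 5.02 with shRenilla, with ITGAM, an integrin chain, at 6.44, 0.289 and 0.109. The B cell markers summed to 48.4, 65.4 and 72.8, with MS4A1 at 0, the NK markers to 29.5, 13.5 and 26.0, with NCR1 at 0, and the fibroblast and erythroid markers to at most 1.35 and 0.463. TRAC, the constant chain of the T cell receptor, was at 27.2 with shJMJD3, 193 with shUTX and 344 with shRenilla. The T cell markers together, TRAC among them, did not fall: they summed to 3942, 3598 and 3703 in that order. Their part in the ratios of the ribosomal protein genes was not tested. In bulk RNA, fewer cells of a kind and less RNA per cell cannot be told apart.

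Between the lines, more of the family was higher in CUTLL1 than lower. The fit with hairpin as a block, in which the 3 hairpins are the replicates, called 19 of the 77 genes higher in CUTLL1 and 2 lower at an edgeR adjusted p under 0.05, where 19% and 17.8% of the 24003 genes tested were called. The share higher, 24.7%, was near the background in this fit and the share lower under it. With DESeq2 the share higher was 32.5% against 14.3%, and in edgeR without the filter 20.8% against 10%, both over 40694 genes. With the other CUTLL1 control column it was 31.2% against 18.6%. Before adjustment 33 were higher and 3 lower at p under 0.05, where 50.1% of all genes passed in either direction. The fitted median was 0.42 against 0.11 for all genes, and 63 of the 77 were above 0. With column totals 9 were higher and 6 lower, shares of 11.7% and 7.79% that both lay under those of all genes, 14.6% and 24.5%. The median was then 0.12 against -0.20, and 47 were above 0. Of the large-particle genes 14 of 50 were called higher and 1 lower, and of the small-particle genes 5 of 26 and 1.

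MRPL41 was the gene with the largest fitted difference. It stood at 43.7, 54.4, 60.4 and 57.9 in the CUTLL1 columns with shJMJD3, shUTX and the larger and smaller controls, and at 2.69, 3.504 and 2.05 in CEM with shJMJD3, shUTX and shRenilla. The fitted log2 ratio was 4.33 (SE 0.28, edgeR adjusted p = 0.0017), the SE being the ratio over the square root of F. It was called in all 8 alternative fits, with ratios from 4.03 to 4.55. The groups did not overlap, and the lowest CUTLL1 level was over 10 times the highest in CEM.

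MRPL23 followed at 1.58 (SE 0.16, edgeR adjusted p = 0.00433), with levels of 67.6 to 99.3 in the deposited CUTLL1 columns and 25.4 to 30.4 in CEM. MRPL52, a large-particle protein found in mitochondria only, had 1.501 (SE 0.15, edgeR adjusted p = 0.00395), with 58.2 to 73.3 against 21.0 to 25.3. Each of these was called in all 8 alternative fits. MRPS28 had 1.41, with 32.7 to 34.7 against 10.8 to 18.8, and MRPS24 had 1.22, with 86.5 to 98.5 against 36.4 to 43.5. In edgeR both lost the call without the shRenilla columns, at adjusted p = 0.111 and 0.0779. MRPS28 has 35.8% of its exon bases in common with another gene on the same strand.

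Lower in CUTLL1 were MRPS25 and MRPL12. MRPS25, a small-particle protein without bacterial counterpart, stood at 37.1 to 39.8 in CUTLL1 and 65.2 to 78.6 in CEM, a fitted ratio of -0.85 (SE 0.14, edgeR adjusted p = 0.0143). MRPL12 had -0.72 (SE 0.18, edgeR adjusted p = 0.0357). Their levels did not overlap between the lines. Both calls were lost without the shRenilla columns, and that of MRPL12 also without shUTX. The counts themselves depended on the columns kept. Without shJMJD3 42 were higher and 3 lower, where 23.6% and 22.4% of all genes were, so the share higher, 54.5%, lay above the background there. Without shUTX there were 9 and 1, against 18.5% and 13.9% of all genes, and without shRenilla 3 and 0, against 4.26% and 5.23%.

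**Figure D5:**
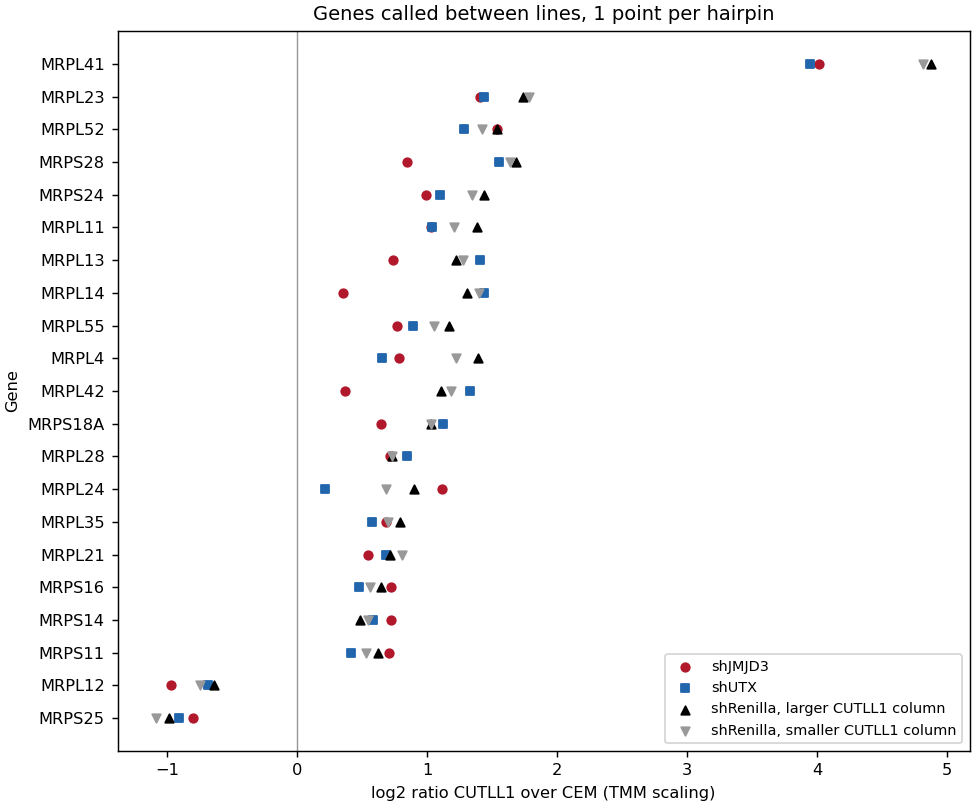
Log2 ratio of CUTLL1 to CEM for the 21 genes called between the lines, with 1 point per hairpin and a separate point for each CUTLL1 control column. All points of the 19 genes called higher lie above 0 and all points of MRPL12 and MRPS25 below 0, and MRPL41 lies far to the right of the others.

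Other genes of the pathway differed between the lines in their own ways. Of all genes tested, 19% were called higher in CUTLL1 and 17.8% lower. Of the 6 subunits without an MRP symbol, AURKAIP1 was called higher in CUTLL1, at 1.16 (edgeR adjusted p = 0.015), and none lower. The assembly list had 7 of 27 called higher and 1 lower, the translation factors 3 and 1 of 16, the synthetases 4 and 0 of 16, and the transcription list 3 and 0 of 15. By contrast 12 of 13 mitochondrially encoded mRNAs were called lower in CUTLL1, with a median of -5.41. Mitochondrially encoded genes took 0.0686% to 0.189% of counts in the deposited CUTLL1 columns and 2.79% to 4.17% in CEM. The lines also differed in the share of counts on protein-coding genes, 66.9% to 81.8% in CUTLL1 and 93.0% to 94.1% in CEM, which cannot be told apart from the line here.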

How the data were processed

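RNA was sequenced from 14 samples of 2 cell lines as single reads of 50 nt. Per the labels' protocols, RNA was selected for polyadenylated or depleted of ribosomal RNA and made into libraries that mark the strand, and hg19, TopHat and CASAVA stand in the submitters' processing notes. No source used here names the counting program or its annotation. The authors deposited 6 DEGseq tables with raw counts per gene, 1 column per hairpin and line, together with log2 ratios that they normalized to column totals and p-values for each pair. Which libraries a column pools is not given, so each column is the authors' pooled value.

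Counts were scaled with TMM over the 7 deposited columns (edgeR 4.0.16, R 4.3.3). Across lines, edgeR's quasi-likelihood test was fitted to all genes passing filterByExpr with line and hairpin as terms, Benjamini-Hochberg adjusted over all genes tested. DESeq2 1.42.0, other scalings, filters and folds and other control columns were the alternatives. The fits were tested on simulated data. Lengths and overlaps came from GENCODE 29, which is on another build than hg19, so no coordinates of expression are given. Within each comparison the 4 highest and 4 lowest members were named, in the line comparison up to 5 called on each side, and MRPS18A, MRPS18B, MRPS18C, MRPL12, MRPS12 and the 6 subunits with other names throughout. Other genes of a pathway list were named by rule when past 1.5-fold the same way in both lines. The members and lists were chosen with earlier results of these data known.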

Additional observations from a re-analysis of the deposited data

Results flagged for a closer look

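Some members lay on opposite sides of 0 in the 2 lines for the same pair of hairpins, past 1.5-fold in at least 1 of the lines and with counting intervals that excluded 0 in both lines. The difference between lines was not tested, since each line has 1 column per hairpin. The share of all genes that meets the same rule is not given here, so the flags cannot be read as a trait of the family. For shJMJD3 over shRenilla, CUTLL1 is given first and CEM second: MRPL17 was at -0.06 and 1.42, MRPL14 at -0.07 and 0.88, MRPL34 at -0.07 and 0.78, MRPL54 at -0.12 and 0.73, MRPL27 at -0.17 and 0.69, and MRPL19 at -0.33 and 0.60. In the other direction MRPL49 was at 0.56 and -0.67 and MRPS18B at 0.26 and -0.72. The CUTLL1 values are against the larger control column. Against the remainder, MRPL17, MRPL14, MRPL34, MRPL54 and MRPL27 stood higher with shJMJD3 in CUTLL1 too, so their opposite sides depend on the control column. Their levels were 84.4, 33.6, 52.45, 34.3 and 29.7 with shJMJD3 and 80.1, 27.2, 47.6, 24.6 and 27.1 in the remainder. MRPL19, MRPL49 and MRPS18B kept their side.

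For shUTX over shRenilla the 1 such gene was MRPL41, at -0.09 and 0.77. For shJMJD3 over shUTX there were 10. MRPL17 was at -0.11 and 1.30, MRPL16 at -0.06 and 1.02, MRPL54 at -0.25 and 0.98, MRPL42 at -0.04 and 0.92, MRPL14 at -0.17 and 0.91, MRPL44 at -0.15 and 0.79, MRPL53 at -0.09 and 0.75, MRPL34 at -0.17 and 0.73, and MRPL19 at -0.28 and 0.62. MRPL49 was at 0.77 and -0.44. The genes flagged for shJMJD3 over shUTX rest on the same shJMJD3 columns as those for shJMJD3 over shRenilla. In CUTLL1, those lower with shJMJD3 than with shUTX were also lower in the remainder than in the smaller control. MRPL54 was at 24.6 and 42.1 there, and MRPL16 at 36.8 and 54.4. MRPL49, higher with shJMJD3, did not follow this split, at 35.7 and 36.4. The part of the split in these CUTLL1 ratios was not tested.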

How the results depend on the processing

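No paired analysis was possible because the deposited columns carry no replicate number. Leaving out a line leaves no residual degrees of freedom and was not run. With column totals, shJMJD3 over shRenilla had 3 members lower and a median of -0.193 in CUTLL1, and 9 higher, 6 lower and a median of 0.0395 in CEM. On that scale shUTX over shRenilla in CUTLL1 had 1 lower and a median of -0.163, and shJMJD3 over shUTX had 1 higher, 5 lower and a median of -0.287 in CUTLL1 and 11 higher, 5 lower and a median of 0.0563 in CEM. DESeq2's size factors gave 1 higher for shJMJD3 over shRenilla in CUTLL1, and 23 higher, 2 lower and a median of 0.368 in CEM. The shares of all genes on that scale are not given here. With the other CUTLL1 control column, 3 were higher with shJMJD3 and 2 lower with shUTX. With the remainder, 3 were higher, 2 lower and the median 0.0975 with shJMJD3, where 19.5% and 19.2% of all genes stood apart, and 8 were higher and 5 lower with shUTX. At 2-fold, shJMJD3 over shRenilla had 0 lower in CUTLL1 and 3 higher and 0 lower in CEM, shUTX over shRenilla 0 higher in CEM, and shJMJD3 over shUTX 1 higher in CUTLL1 and 4 higher and 0 lower in CEM. The shares of all genes past 2-fold are not given here, so these counts cannot be read as a trait of the family.

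Between the lines, column totals gave 9 higher and 6 lower. Leaving out 1 hairpin gave 2004 to 10304 genes called, 3 to 42 members higher and 0 to 3 lower. Across lines, DESeq2 called 110 genes for shJMJD3 against shRenilla, 4 for shUTX against shRenilla and 287 for shJMJD3 against shUTX, and for the last edgeR called 6 with column totals and 55 without the filter. The cause was not tested. Of 272 alternative values of named members, 184 moved by less than their interval and 88 moved further. Minimums of 10 and 200 counts cannot alter a gene's own ratio, so their values fall among the 184 by construction. The 184 therefore do not measure how stable the ratios are. Among the 272 values 1 changed sign: MRPL10, for shUTX over shRenilla in CUTLL1, from 0.22 to -0.03 with the remainder. Depth limits MRPL41 in CEM most, at 186 to 279 counts.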
